A study of Mus musculus with 68 samples.

Results

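The interferon response genes described here were a list of 37 genes that interferons are known to switch on, picked by their symbols. Earlier results of these data were known when the list was chosen. Of the 37, 34 had a probeset annotated to their symbol alone on the Affymetrix mouse array used, and each was followed through the probeset of highest mean over the 68 arrays. Isg15 shared its probeset with Gm9706, and Isg15, Ifi44 and Oas1g were not analysed here. A gene was tested when its probeset lay above the median of the array in at least 11 of the 68 arrays, and 31 of the 34 genes passed, among 12605 genes tested in all. Oas3, Mx1 and Mx2 fell below that limit.

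Interferons are proteins that cells release on sensing viral or displaced nucleic acid. Type I and type III interferons act through a transcription factor complex that holds Stat2 and Irf9 and binds the interferon-stimulated response element (ISRE), and interferon gamma, made mostly by T and NK cells, acts on the gamma-activated site (GAS). Irf7 amplifies the type I response because it is itself induced, and the induced products include RNA sensors, inhibitors of translation and of viral budding, chemokines and the subunits of the immunoproteasome. In skin the response is known both from keratinocytes and from the leukocytes that enter an inflamed or tumor-bearing site.

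Papillomas are benign epithelial tumors. All mice came from a backcross of SPRET/Ei X FVB/N hybrids to FVB/N, called FVBBX, so that each mouse carried its own mixture of FVB/N homozygous and SPRET/Ei heterozygous segments. Mice of 8 to 12 weeks received a single dose of dimethyl benzanthracene (DMBA), a mutagen, on the dorsal back skin, and then repeated applications of the tumor promoter tetradecanoyl-phorbol acetate (TPA) for 20 weeks, and no untreated skin was analysed here. The 68 papillomas came from 37 mice, 31 with 2 papillomas and 6 with 1. By the number of papillomas at 20 weeks, 12 mice were susceptible (9 to 35 papillomas, 22 arrays), 19 were intermediate (2 to 7 papillomas, 35 arrays) and 6 were resistant (0 or 1 papilloma, 11 arrays). From each resistant mouse more papillomas were profiled than were counted at 20 weeks, so some were not among those counted. Class was thus tied to the time of papilloma onset, and the part of onset in the class differences was not tested. The labels gave 21 mice as female (7 susceptible, 10 intermediate, 4 resistant) and 16 as male. In coat 17 were agouti (4 susceptible, 8 intermediate, 5 resistant) and 20 were white, so class and coat were partly tied. Mice are numbered here from 1 to 37 in the order of the records, and the number is only a name.

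Values were log2 RMA levels, and comparisons were made over the mean of each mouse. Array medians lay between 5.18 and 5.28. Xist and Eif2s3y went against the labelled sex in 8 arrays of 6 mice (1 susceptible, 4 intermediate, 1 resistant). Counts for resistant minus intermediate mice, for sex and for the relations are also given without these mice. The same holds for the Ifit3, Irf7, Ifit1 and Bst2 differences in those comparisons. Most other values are given only with these mice included. The mean of 6 keratinocyte markers was 13.27 over mice (11.76 to 13.71), and that of 8 macrophage markers was 9.24 (7.93 to 10.95). Of the marker genes of B cells and of NK cells, 0 passed the filter. SPRET/Ei sequence differences under a probe may alter hybridization, and their part in any difference was not tested. In such bulk tissue, fewer cells of a type and less RNA per cell cannot be told apart.

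Interferon response elements could be searched in the promoters of part of the list. The following windows were read from RefSeq on GRCm38.p6 for 4 genes that carry the class, sex or same-mouse results, and for Gbp3 and Irf1, which answer to interferon gamma, and these 6 were chosen with their values known. Each is printed 5′ to 3′ on the strand of its gene, and capitals mark matches to the ISRE, searched as GAAANNGAAA or, on the other strand, TTTCNNTTTC, or for Irf1 to the GAS, searched as TTCNNNGAA, which is its own reverse complement.
Ifit3, chr19:34583353-34583436, plus strand, 176 to 93 bases before the start, 2 matches: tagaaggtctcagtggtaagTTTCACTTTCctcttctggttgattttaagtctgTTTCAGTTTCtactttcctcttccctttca
Ifit1, chr19:34640765-34640833, plus strand, 124 to 56 bases before the start, 2 matches: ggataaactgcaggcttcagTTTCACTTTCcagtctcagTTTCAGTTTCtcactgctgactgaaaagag
Rsad2, chr12:26456543-26456592, minus strand, 140 to 91 bases before the start, 1 match: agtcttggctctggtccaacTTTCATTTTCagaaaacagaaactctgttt
Bst2, chr8:71537567-71537622, minus strand, 150 to 95 bases before the start, 2 overlapping matches: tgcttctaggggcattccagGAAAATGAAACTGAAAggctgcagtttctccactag
Gbp3, chr3:142559979-142560034, plus strand, 65 to 10 bases before the start, 2 overlapping matches: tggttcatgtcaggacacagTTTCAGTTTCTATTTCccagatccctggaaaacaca
Irf1, chr11:53769904-53769952, plus strand, 110 to 62 bases before the start, 1 match: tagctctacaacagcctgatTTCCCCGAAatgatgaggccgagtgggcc

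The table of promoters reached from 250 bases before to 50 bases after each start and held 26 of the 34 genes, in 32 windows. An ISRE match lay in the window of 13 of these 26 genes, against 3.99% of the 27025 genes in the table. A GAS match lay in 8 of the 26, against 9.55% of all genes, and 3 of the 26 held both. The matches are letters in a window and not evidence of binding in these tumors. Irf7, Ifitm1, Oasl1, Oasl2, Cxcl9, Irf9, Xaf1 and Psmb9 had windows with neither element by these letters.

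The levels of these genes varied widely from mouse to mouse. Of the 31 tested genes, 21 spanned more than 2 log2 units over the 37 mouse means, or 67.7%, against 19.5% of all probesets tested, and their median span was 2.17 against 1.25. Ifitm1, a membrane protein that hinders viral entry, ran from 7.72 to 11.94. Irf7 ran from 5.40 to 9.30 and Cxcl9, a chemokine that draws T cells, from 4.68 to 8.35. These 3 genes had the widest spans of the list, each of more than 3.5 log2 units or over 12-fold. The next were Rtp4, a chaperone induced by interferon (5.17 to 8.63), Ifit1, which binds foreign RNA (3.81 to 7.23), and Bst2, also called tetherin, which holds budding virus at the cell surface (5.96 to 9.36). Spans are properties of single probesets, and levels of different probesets are not compared.

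The narrowest spans belonged to Oas2 (5.84 to 6.95) and to Dhx58, a regulator of RNA sensing (4.30 to 5.42). By role, spans ran from 1.12 to 2.06 among the 4 sensors and from 2.60 to 3.42 among Ifit1, Ifit2, Ifit3 and Usp18, the protease that removes Isg15 from its targets. The distribution also differed in form. Bst2 had its widest empty interval in the middle of the mice, with 17 mice at or below 7.14 and 20 at or above 7.66, whereas for Irf7, Ifit1, Ifit2, Ifit3 and Usp18 the widest interval separated 1 mouse from the other 36. That mouse was resistant mouse 35, of which 1 papilloma was measured and whose labelled sex was in doubt. It held the highest level of 11 of the 31 genes, and intermediate mouse 3 held the lowest of 8.

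**Figure D1:**
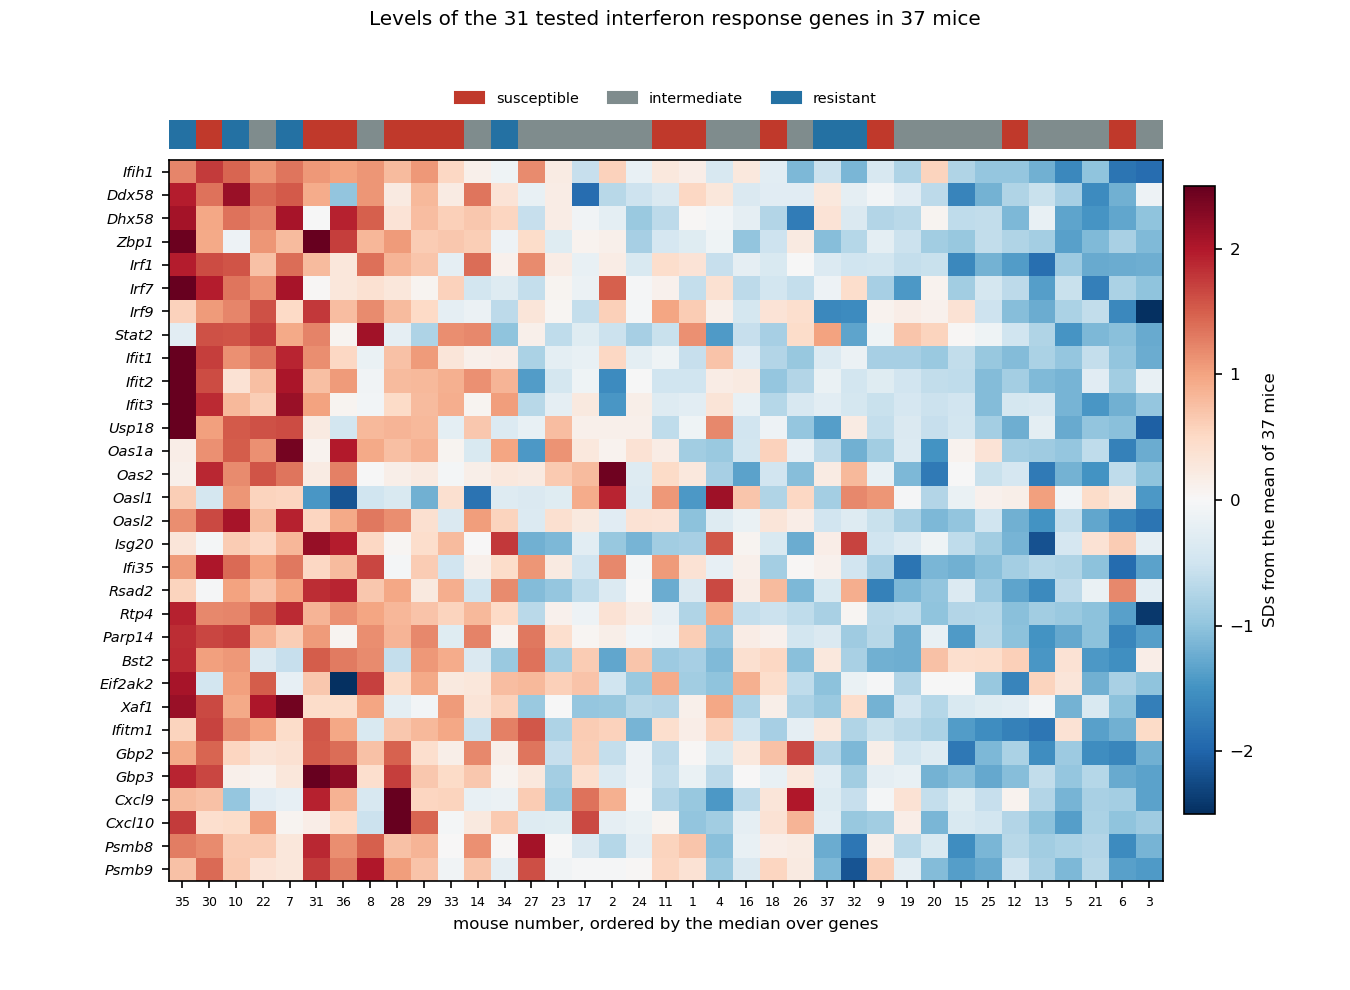
Levels of the 31 tested genes (rows) in 37 mice (columns, ordered by the median over genes), coloured by the number of SDs from the mean of the 37 mice, with the class of each mouse in the strip above. Mouse 35 stood at the high end and mouse 3 at the low end, most rows shared one gradient, and the Oasl1 row did not follow it.

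Resistant and intermediate mice were compared to ask whether the response followed tumor number at its low end. Levels were higher in papillomas of resistant mice for 28 of the 31 genes, and 1 passed the test, Ifit3, where 0.778% of all 21581 probesets passed (limma, adjusted p under 0.05). At an unadjusted p under 0.05, 14 of the 31 were higher and 0 lower, against 7.8% of all probesets higher. The 14 became 8 without the 6 mice of doubtful sex label, 9 without mouse 7 and 5 with the keratinocyte marker mean as a covariate, where the shares of all probesets higher were 4.11% without the doubtful mice and 3.10% with the covariate. The median difference over the 31 genes was 0.36 log2, against -0.01 over all probesets. Among the roles, 4 of 4 genes of the Ifit and Isg15 system, 2 of 4 sensors, 2 of 4 transcription factors, 2 of 4 oligoadenylate synthetases and 4 of 9 other effectors were past the unadjusted limit, and 0 of 6 interferon gamma type targets. The class of each mouse also moved with tissue markers: the keratinocyte marker mean was 12.77 in resistant (11.76 to 13.22) and 13.43 in intermediate mice (13.11 to 13.71), the endothelial mean was 7.26 against 6.62 with 4 of 4 markers higher, and the neutrophil mean was 8.34 (7.95 to 8.86) against 7.57 (6.29 to 8.66) with 5 of 5 higher. Of the 6 keratinocyte markers 1 was higher in resistant mice, and the median difference over the 6 was only -0.16 log2. Krt1 and Krt10, keratins of the suprabasal epidermis, were the 2 that passed the test as lower in resistant mice (-1.98 and -1.62 log2). The keratinocyte mean, also as a covariate, thus leans on these 2 genes. Their part in the differences of the interferon response genes was not tested beyond the covariate fit given with the alternatives. The log2 ratio of Actb 3′ to 5′ control probesets, a sign of RNA integrity, averaged 0.590 in resistant, 0.716 in intermediate and 0.848 in susceptible mice. With it as a covariate 4 of the 31 genes passed (Irf7, Ifit1, Ifit2 and Ifit3), while the calls over all 21581 probesets also rose, from 168 to 960.

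Ifit3, an adaptor that works with Ifit1 on foreign RNA, had mouse means of 7.33, 6.66, 6.00, 5.87, 5.23 and 5.13 in the 6 resistant mice. Its lowest, median and highest values were 4.52, 5.14 and 5.74 in the 19 intermediate mice and 4.67, 5.33 and 6.48 in the 12 susceptible mice. So 4 of the 6 resistant mice lay above every intermediate mouse, and the other 2 lay within their range. The difference was 0.90 ± 0.23 log2 (SE), or 1.87-fold, with an adjusted p of 0.0491 by limma. The call was lost without the 6 mice of doubtful sex label (0.62, adjusted p = 0.281), with sex and start cohort as covariates (0.92, adjusted p = 0.0531) and with the keratinocyte covariate (0.84, adjusted p = 0.642), and the adjusted p stayed under 0.05 in 8 of 25 limma fits that left out 1 mouse each.

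Irf7, which carried the largest difference of the list, had mouse means of 9.30, 8.55, 7.94, 7.20, 6.72 and 6.56 in resistant mice. The lowest, median and highest were 5.40, 6.44 and 8.09 in intermediate and 6.14, 6.88 and 8.47 in susceptible mice. All 6 resistant mice lay above the intermediate median, and 2 of them, mice 35 and 7, above every intermediate mouse. The difference from intermediate mice was 1.16 ± 0.34 log2, or 2.24-fold, with an adjusted p of 0.0769 by limma, which did not pass. Without the mice of doubtful sex label it was 0.70.

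Ifit1 had mouse means of 7.23, 6.22, 5.64, 4.89, 4.64 and 4.49 in resistant mice, against 3.81, 4.30 and 5.78 (lowest, median, highest) in intermediate mice. Again all 6 lay above the intermediate median and 2 above the whole intermediate range. The difference was 1.05 ± 0.31 log2, with an adjusted p of 0.0828 by limma, and 0.67 with an adjusted p of 0.404 without the mice of doubtful sex label. Ifit2, the third RNA-binding member of this family, differed by 0.76 ± 0.23 and Usp18 by 0.52 ± 0.26, with adjusted p of 0.0851 and 0.272 by limma, so neither passed.

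Rsad2, or viperin, which makes a chain-terminating nucleotide, showed another form: its mouse means in resistant mice were 8.31, 8.15, 8.15, 8.07, 7.73 and 6.87, with mouse 37 below the other 5, against 5.76, 6.76 and 8.73 in intermediate mice. All 6 were above the intermediate median and 0 were above the highest intermediate mouse. Its difference was 1.02 ± 0.38 log2, with an adjusted p of 0.154 by limma. Isg20, an exonuclease, differed by 0.77 ± 0.24, Ddx58, the RNA sensor RIG-I, by 0.46 ± 0.14, Oasl2 by 0.91 ± 0.35 and Rtp4 by 0.86 ± 0.34, and the lowest adjusted p among these 4 was 0.0907. Mx1, below the filter, stood at 4.76 ± 0.53 in resistant and 4.21 ± 0.29 in intermediate mice (SD).

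None of the other sensors and transcription factors passed the adjusted test. Dhx58 stood at 5.11 ± 0.29 (SD) in resistant, 4.72 ± 0.25 in intermediate and 4.82 ± 0.28 in susceptible mice, and its difference of 0.39 between the first 2 classes had an adjusted p of 0.0976 by limma. Ifih1, the RNA sensor MDA5, stood at 6.92 ± 0.62, 6.56 ± 0.52 and 6.87 ± 0.56 in the same order. Irf1, a transcription factor of both interferon types, stood at 9.00 ± 0.41, 8.62 ± 0.37 and 8.78 ± 0.34, with 5 of 6 resistant mice above the intermediate median. Irf9 (6.77 ± 0.51, 6.83 ± 0.41 and 7.03 ± 0.40) was 1 of the 3 genes with a lower estimate in resistant than in intermediate mice, with Cxcl9 and Psmb9, and its partner Stat2 stood at 5.95 ± 0.57, 5.82 ± 0.49 and 5.92 ± 0.45.

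In the oligoadenylate synthetase family, whose active enzymes make the activator of the nuclease RNase L, Oas2 stood at 6.48 ± 0.14 in resistant, 6.22 ± 0.30 in intermediate and 6.37 ± 0.19 in susceptible mice, with all 6 resistant mice above the intermediate median. Oas1a stood at 7.92 ± 0.62, 7.57 ± 0.37 and 7.73 ± 0.48 in that order, and Oasl1 at 8.08 ± 0.41, 7.95 ± 0.50 and 7.68 ± 0.53. Oasl1 and Eif2ak2, the kinase PKR that halts translation, were the 2 of the 31 tested genes with lower estimates in susceptible than in intermediate mice. Eif2ak2 stood at 6.21 ± 0.48, 6.04 ± 0.39 and 5.92 ± 0.49. Oas3 and Mx2, below the filter, stood at 4.41 ± 0.27, 4.21 ± 0.15 and 4.33 ± 0.30 and at 5.11 ± 0.14, 5.02 ± 0.17 and 4.95 ± 0.09.

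Of the remaining effectors, Ifitm1 had the widest spread in intermediate and in susceptible mice and Bst2 in resistant mice. Ifitm1 stood at 10.49 ± 0.89, 9.51 ± 1.15 and 10.19 ± 1.32 in resistant, intermediate and susceptible mice. Bst2 stood at 7.64 ± 1.14, 7.35 ± 0.93 and 7.65 ± 1.09, so that its class means lay within 1 SD of each other. Ifi35 stood at 9.94 ± 0.26, 9.64 ± 0.33 and 9.73 ± 0.37 and Parp14 at 7.09 ± 0.54, 6.72 ± 0.46 and 6.92 ± 0.47. Xaf1 differed by 0.62 ± 0.21 between resistant and intermediate mice, with an adjusted p of 0.112 by limma.

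The 6 interferon gamma type targets had a median difference of 0.13 between resistant and intermediate mice. Cxcl9 stood at 5.63 ± 0.46 (SD, n = 6) in resistant and 5.65 ± 0.73 (n = 19) in intermediate mice. Psmb9 and Psmb8, subunits of the immunoproteasome, stood at 7.93 ± 0.48 and 8.67 ± 0.68 in resistant against 7.96 ± 0.40 and 8.61 ± 0.56 in intermediate mice. For these 3 genes the classes overlapped throughout. Gbp2 stood at 7.07 ± 0.72, 6.83 ± 0.92 and 7.36 ± 0.93 in resistant, intermediate and susceptible mice, and Cxcl10, a chemokine of both interferon types, at 5.30 ± 0.35, 5.10 ± 0.30 and 5.29 ± 0.50. The difference between the gamma type targets and the other genes was not tested.

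**Figure D2:**
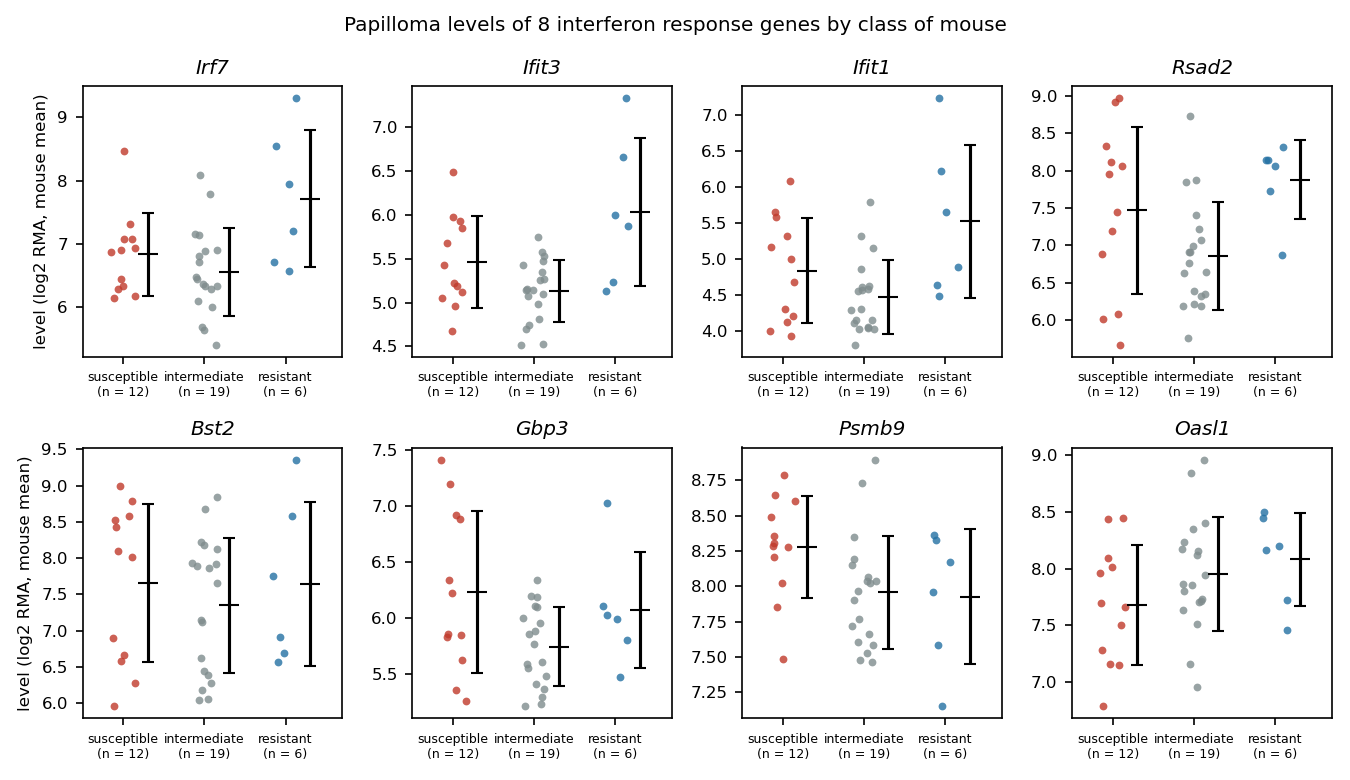
Mouse mean levels (log2 RMA, vertical axes) of 8 of the genes in susceptible, intermediate and resistant mice, 1 point per mouse, with the class mean and 1 SD beside the points. For Ifit3, 4 of the 6 resistant mice lay above all 19 intermediate mice, and each class had mice both above and below the empty interval of Bst2 between 7.14 and 7.66.

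Susceptible mice, compared with the same 19 intermediate mice, gave 0 passing genes of 31, where 0.00927% of all probesets passed (limma, adjusted p under 0.05). The estimates were higher in susceptible mice for 29 of 31 genes. At an unadjusted p under 0.05 were 3 of the 31, all higher, or 9.68%. This was near the 7.68% of all probesets past that limit and higher. The median difference was 0.28 log2, against -0.01 over all probesets. The 3 genes were Gbp3, an interferon-induced GTPase, Psmb9, and Zbp1, a sensor of Z-form nucleic acid that can start necroptosis. Because both comparisons use the intermediate mice as reference, their values are given side by side only.

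Gbp3 had a lowest, median and highest value of 5.26, 6.04 and 7.41 in susceptible mice and 5.21, 5.77 and 6.33 in intermediate mice. The ranges overlapped, with the upper susceptible mice beyond the intermediate range. The difference was 0.48 ± 0.19 log2 with an adjusted p of 0.223 by limma, and in resistant minus intermediate mice it was 0.33 ± 0.24. Psmb9 differed by 0.32 ± 0.14 and Zbp1 by 0.36 ± 0.17 in susceptible minus intermediate mice, and by -0.03 and 0.25 in resistant minus intermediate mice. The T cell marker mean was 6.45 in susceptible (6.00 to 7.61), 6.16 in intermediate (5.69 to 6.97) and 6.25 in resistant mice (5.80 to 6.76), and its part in these differences was not tested.

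The extreme classes were compared directly over the 18 susceptible and resistant mice. Again 0 of 31 genes passed, where 0.051% of all probesets did (limma), and 2 were past an unadjusted p of 0.05, both lower in susceptible mice, against 3.95% of all probesets lower. Estimates were lower in susceptible mice for 23 genes and higher for 8, and 5 of the 6 gamma type targets were among the 8. Irf7 stood 0.88 ± 0.38 log2 lower in susceptible mice (exact permutation p = 0.0405 over 18564 splits, limma adjusted p = 0.449) and Ddx58 0.33 ± 0.14 lower (exact permutation p = 0.0403, limma adjusted p = 0.467). For both genes the 2 classes overlapped, and neither passed adjustment over all probesets.

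**Figure D3:**
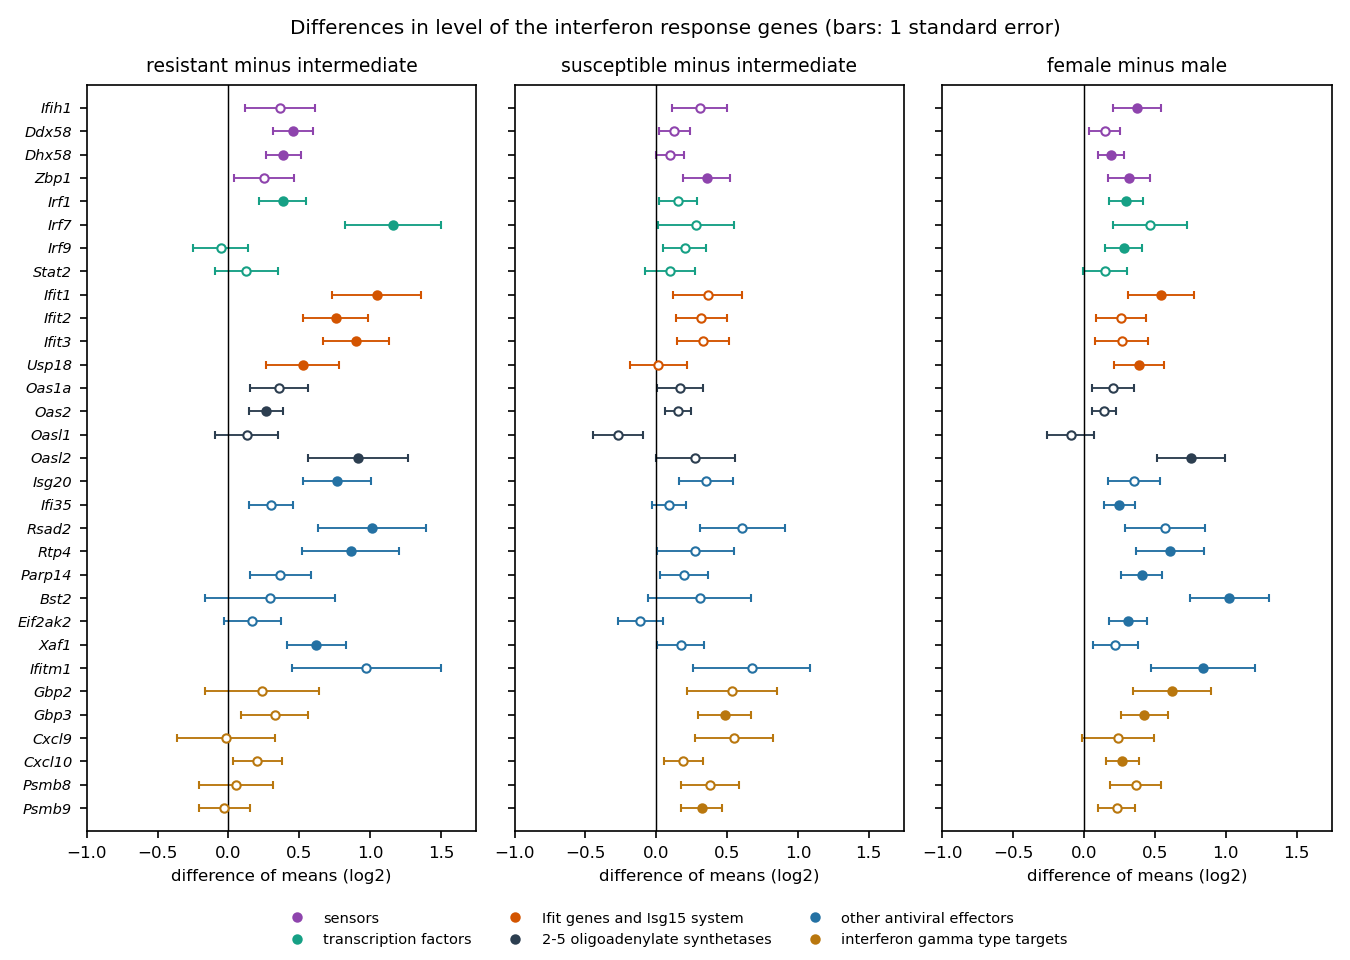
Difference of class or sex means (log2, horizontal axis) for each of the 31 genes with 1 standard error, coloured by role; filled points mark an unadjusted limma p under 0.05. The filled points of resistant minus intermediate mice were all to the right of 0 and included 0 of the 6 gamma type targets, those of susceptible minus intermediate mice were Zbp1, Gbp3 and Psmb9, and 17 of the 31 points were filled for female minus male.

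The number of papillomas at 20 weeks, taken as a slope over all 37 mice per doubling of the number plus 1, gave 0 passing genes, where 0.00463% of all probesets passed (limma). At an unadjusted p under 0.05 were 3 of 31 genes, a share near the 10.9% of all probesets: Oasl1 with a slope of -0.14, Usp18 with -0.15 and Psmb9 with 0.11. Of the 31 slopes, 12 lay above 0 and 19 below.

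Labelled sex was compared over all 37 mice. The estimate was higher in mice labelled female for 30 of the 31 genes, all but Oasl1 (-0.10), although 0 passed, where 0.0695% of all probesets passed (limma, adjusted p under 0.05). At an unadjusted p under 0.05, 17 of 31 were higher and 0 lower, against 7.08% of all probesets higher, and the median difference was 0.31 log2 against -0.01. The 17 were spread over all roles: 3 of 4 sensors, 2 of 4 transcription factors, 2 of 4 genes of the Ifit and Isg15 system, 1 of 4 oligoadenylate synthetases, 6 of 9 other effectors and 3 of 6 gamma type targets. Without the 6 mice of doubtful sex label, 4 of 31 were past the unadjusted limit and 30 estimates stayed higher. Of all probesets, 4.27% were then past the limit and higher, and 47.2% had a higher estimate.

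Bst2 had the lowest p. In 21 mice labelled female its lowest, median and highest values were 6.38, 7.94 and 9.36, and in 16 labelled male they were 5.96, 6.59 and 8.43. The sexes overlapped over most of the range, with medians more than 1 log2 unit apart. The difference was 1.03 ± 0.28 log2, or 2.04-fold, with an adjusted p of 0.174 by limma, and without the mice of doubtful label it was 1.01 with an adjusted p of 0.292.

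Oasl2, a member of the synthetase family with ubiquitin-like domains, stood at 5.55 ± 0.69 (SD, n = 21) in mice labelled female and 4.80 ± 0.83 (n = 16) in those labelled male. Parp14, an ADP-ribosyl transferase, differed by 0.41 ± 0.14 log2, Rtp4 by 0.60 ± 0.24 and Gbp2 by 0.62 ± 0.28, all higher in mice labelled female. The lowest adjusted p among these 4 was 0.217 by limma. Macrophage markers moved the same way, with a mean of 9.43 in mice labelled female (8.11 to 10.95) and 8.99 in those labelled male (7.93 to 10.70) and 8 of 8 markers higher, as did the neutrophil mean (8.05 against 7.50, 5 of 5 higher) and the striated muscle mean (6.86 against 5.84, 5 of 5 higher). The keratinocyte mean was lower in mice labelled female (13.16 against 13.41, 6 of 6 lower), as was the melanocyte mean (6.34 against 7.25), where 4 of 4 markers were past the unadjusted limit. With the macrophage mean as a covariate, 3 of the 31 genes were past the unadjusted limit, where the share of all probesets higher was 2.91%, and the Bst2 difference was 0.89. Without the 2 mice of highest muscle mean 9 were, where the share was 5.00%. The part of the neutrophil and melanocyte markers was not tested.

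Coat color, a marker of the SPRET/Ei allele at Tyr, was fitted with sex and gave 0 passing genes, where 0.0741% of all probesets passed (limma). Ifitm1 was past an unadjusted p of 0.05, 1 of 31 against 7.87% of all probesets, at 9.44 ± 1.12 in agouti and 10.27 ± 1.17 in white mice (SD). Irf7, Isg20 and Ifitm1 lie on chromosome 7, as does Tyr. No class fit held coat as a covariate, so the part of coat in the class differences was not tested. Days to sacrifice, known for 31 mice (179 to 388 days), gave 0 passing genes where 0% of all probesets passed, and 0 of 31 at an unadjusted p under 0.05 against 5.51% of all (limma). The start cohort, 7 groups of mice begun together, gave 0 passing genes where 0% of all probesets passed, with Cxcl9 past an unadjusted p of 0.05, 1 of 31 against 4.66% of all.

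The genes that make or relay interferon were counted in resistant minus intermediate mice, where 18.2% of all probesets were past an unadjusted p of 0.05 in either direction and 47.5% had a higher estimate in resistant mice. Ifng and Ifnb1, the genes of interferon gamma and beta, lay above the array median in 0 of 68 arrays. Of 6 receptor genes tested (Ifnar1, Ifnar2, Ifngr1, Ifngr2, Ifnlr1 and Il10rb), 0 passed and 0 were past an unadjusted p of 0.05 in resistant minus intermediate mice (limma), and of 8 signalling genes 1 was, Ptpn6. Among 12 upstream sensors and regulators, 2 were past it, Tlr3 (0.58 ± 0.18), a receptor for viral RNA, and Irf2 (0.44 ± 0.16), and neither passed adjustment. In the receptor, signalling and upstream groups alike, the share past the unadjusted limit lay below the 18.2% of all probesets.

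Of 37 further interferon targets that were not on the list, 27 were higher in resistant than in intermediate mice. Counted in either direction, 13 of the 37 were past an unadjusted p of 0.05 by limma, against the 18.2% of all probesets, with 0 passing. Herc6, the ligase that attaches Isg15 in mice, had the lowest p of these (0.31 ± 0.08, adjusted p = 0.0569 by limma), and Trim25, a ubiquitin ligase of the RIG-I pathway, the next (0.43 ± 0.13, adjusted p = 0.0865). In susceptible minus intermediate mice 30 of the 37 were higher. Past the unadjusted limit in either direction were 6, a share near the 16.1% of all probesets. By sex, 33 of the 37 were higher in mice labelled female, and 12 were past the unadjusted limit in either direction, against 14.9% of all probesets.

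The 2 papillomas of a mouse were compared next, as a measure of how far they shared the level of a gene. They have genotype, cage and start cohort in common, and the parts of these cannot be told apart here. The intraclass correlation, the share of variance that lies between mice, was tested in 31 mice by a one-way F test. It passed for 23 of the 31 genes, or 74.2%, where 71% of all probesets passed, and its median was 0.447 against 0.435. The list as a whole stood near the background.

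Bst2 had the highest intraclass correlation, 0.891, above 99.7% of all probesets tested. The median gap between the 2 papillomas of a mouse was 0.27 log2, although mouse means ran over 3.40. Its widest gap was in mouse 32, at 7.15 and 6.22. Rsad2 followed at 0.747, Isg20 at 0.744, Stat2 at 0.671, Oas1a at 0.635 and Ifitm1 at 0.631. For all 6 the F test passed, with adjusted p of 0.000307 or less.

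At the other end, Dhx58 had an intraclass correlation of 0.081, Irf1 of 0.130, Ddx58 of 0.138, Gbp3 of 0.205, Ifit2 of 0.254 and Oasl1 of 0.272, and 0 of these 6 passed. The widest gap lay in mouse 32 for Irf1 (2.35 log2, median gap 0.34), Ddx58 (1.89, median 0.22) and Gbp3 (2.10, median 0.44). It lay in mouse 22 for Dhx58 and Ifit2 and in mouse 14 for Oasl1. Single wide gaps of this kind lower the intraclass correlation. Irf7 stood at 0.287 and missed the threshold with an adjusted p of 0.0707, and its levels in the papillomas of 1 mouse differed by up to 4.23 log2. In resistant mouse 32 Irf7 was 9.32 in the first and 5.08 in the second papilloma. In resistant mouse 10 it was 7.29 and 8.60, and in resistant mouse 7 it was 8.71 and 8.40.

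Large gaps were shared by many genes of the list within a few mice. Mouse 32 had the widest gap of 13 of the 31 genes, mouse 10 of 7 and mouse 22, an intermediate mouse, of 6. In mouse 32 the first papilloma was higher for 29 of 31 genes with a median gap of 1.20, and in mouse 10 the second was higher for 30 of 31. The macrophage marker mean was 10.08 in the first and 6.97 in the second papilloma of mouse 32, the keratinocyte mean 10.54 and 12.98 and the fibroblast mean 12.32 and 9.68. The Actb control ratio was -0.236 in the first and 0.587 in the second, where all 68 arrays ran from -0.269 to 2.13. The part of these in the gap was not tested. Over the 31 mice, the gaps of 2 genes correlated with a median r of 0.573 over the 465 gene pairs, 426 of them positive, as a description across mice.

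**Figure D4:**
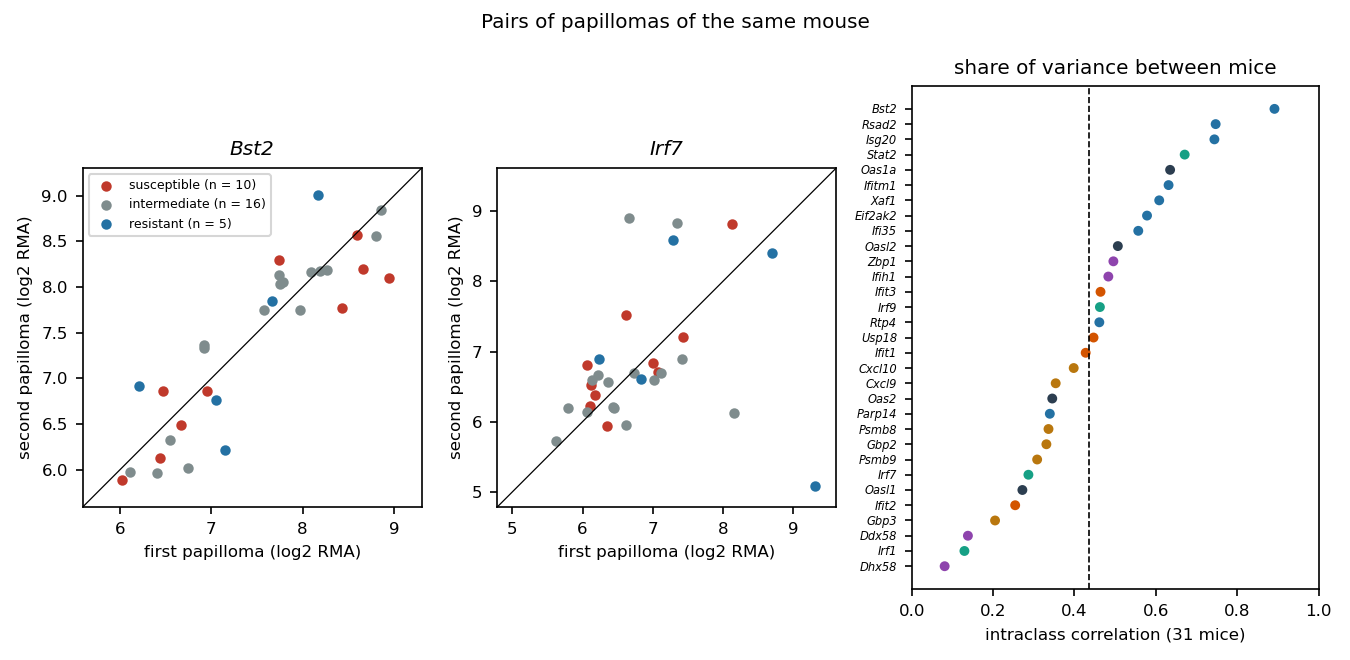
Level in the second against the first papilloma (log2 RMA) of 31 mice for Bst2 and Irf7, with the line of equal levels, and the intraclass correlation of the 31 genes coloured by role, with the median of all probesets as a broken line. The Bst2 points followed the line, several Irf7 points lay far from it, and 16 of the 31 genes stood above the median.

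Mouse means of the genes moved together. The median Pearson r over the 465 gene pairs was 0.52 across 37 mice and 442 were positive, a description with no test because the genes share arrays. The closest pairs were Psmb8 and Psmb9 (0.950), Irf1 and Parp14 (0.941), Ifit2 and Ifit3 (0.907) and Ifit1 and Rtp4 (0.899). Rtp4 was the gene most like the mean of the others, with r of 0.91. Oasl1, a translational inhibitor of Irf7, stood apart at -0.14, and its closest gene was Irf7 at 0.21. The 6 gamma type targets had a median r of 0.715 among themselves and of 0.476 with the other 25 genes.

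Irf7 was related to each of the 30 other genes over 37 mouse means. The relation passed for 26 of the 30 by Pearson r and for 26 by Spearman rho (permutation test with 100000 permutations, Benjamini-Hochberg over 30), and all 30 were positive, with a median r of 0.578. It was closest for Ifit1 (r = 0.869, rho = 0.808) and Rtp4 (r = 0.803, rho = 0.816), each with a permutation p of 1e-05, the smallest these permutations can give. Oasl1 (0.206), Cxcl9 (0.216), Isg20 (0.319) and Eif2ak2 (0.325) did not pass by r. Without the 2 mice farthest from the Irf7 median 22 passed, and 19 did when the mice of doubtful sex label were left out. Within the start cohorts of 6, 8 and 9 mice, 0, 11 and 6 passed by r and 0 by rho (exact permutation tests), with 22, 29 and 28 of 30 positive. How many of all probesets relate to Irf7 in this way was not computed, so these counts cannot be read as particular to the list.

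The markers of leukocytes were related to the 31 genes in the same way. For T cell and macrophage markers alike, the share of all probesets that would pass was not computed. Their counts too cannot be read as particular to the list. The T cell mean of 7 markers passed with 25 genes by r and 27 by rho, and it was closest to Psmb8 (r = 0.834, rho = 0.830), Psmb9 (r = 0.821, rho = 0.808) and Gbp3 (r = 0.80, rho = 0.756). Irf7 (r = 0.30, rho = 0.29, permutation p = 0.072 and 0.0837, adjusted 0.0769 and 0.0927) did not pass, and Oasl1 was the only negative relation (r = -0.332). Without the mice of doubtful sex label 14 passed, without the 2 mice farthest from the median 26, and within the 3 start cohorts 0, 6 and 0 passed by r and 0 by rho.

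The macrophage mean of 8 markers passed with 27 genes by r and 28 by rho, closest to Psmb8 (r = 0.761, rho = 0.742) and Irf1 (r = 0.724, rho = 0.748), and not with Cxcl9 (r = 0.200, rho = 0.193). Without the mice of doubtful sex label 19 passed, without the 2 farthest mice 28, and within the start cohorts 0, 4 and 0 by r. Whether the order of genes differed between the 2 kinds of marker was not tested.

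Of the 34 genes, 13 had 18 further probesets, of which 10 passed the filter. Over 37 mice these 10 had r of -0.41 to 0.99 with the probeset used, with a median of 0.81, and the 8 below the filter had r of -0.31 to 0.76. The other Gbp2 probeset had r of 0.99 and those of Rsad2 0.86 and 0.92. For 2 of the 10 the direction between resistant and intermediate mice was the opposite. Xaf1, an inhibitor of XIAP, had r of -0.41 and a difference of -0.46 log2 where the one used had 0.62, and Stat2 had r of 0.43 and a difference of -0.11 where the one used had 0.13, so for both genes the direction rests on the probeset.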

How the data were processed

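RNA of 68 papillomas was hybridized to Affymetrix mouse arrays of 45101 probesets, and the deposited values are log2 levels per probeset that the authors made with RMA, which corrects background, normalizes arrays to each other and summarizes probes (version not given in the sources used here). RMA forces arrays to like distributions, so a shift common to all genes is not visible. From these, the 2 papillomas of a mouse were averaged, since papilloma number belongs to the mouse, and 34945 probesets with 1 gene symbol were kept. Tested were 21581 probesets above the median of the array in at least 11 of 68 arrays, by limma 3.58.1 (R 4.3.3; lmFit, eBayes) with Benjamini-Hochberg adjustment over all 21581 and a threshold of 0.05. Resistant and susceptible classes, and the intermediate class as the mice between them, followed papilloma number at 20 weeks in the labels. Python 3.11.15 with pandas 2.3.3, numpy 2.4.6 and scipy 1.17.1 gave the intraclass correlations (one-way F test, 30 and 31 degrees of freedom), permutation tests and motif searches, and matplotlib 3.10.9 the figures. Every listed gene with a probeset was named by its probeset of highest mean (21 genes had 1 probeset, 13 several). Described in full were genes called in a comparison, the 6 highest and 6 lowest intraclass correlations, the 6 widest ranges and up to 3 genes per role. The genes, the marker and pathway lists and the tests were chosen with earlier results of these data known. RMA values carry no count depth, and the number of mice limits the precision. Nothing in the labels tells whether arrays were run in batches, and start cohorts were the only grouping in time. Alternatives changed the filter, centring, probeset choice, samples and covariates. Genotypes, normal skin and carcinomas were not analysed here.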

Additional observations from a re-analysis of the deposited data

How the results depend on the processing

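For resistant minus intermediate mice, 1 of the 31 genes passed; 0 passed without the filter, with arrays centred on their medians, without the mice of doubtful sex label, and with the keratinocyte marker mean as a covariate, 2 (Ddx58 and Irf7) with the first papilloma only, and 4 (Irf7, Ifit1, Ifit2 and Ifit3) with the Actb control ratio as a covariate. In resistant mouse 32 the first papilloma stood above the second for Ddx58 (7.45 and 5.56) and for Irf7 (9.32 and 5.08). Leaving out 1 mouse each gave 0 to 2. A filter in 34 arrays left 25 of the 31 genes and removed Ifit3, so that 0 of 25 passed, and of the 14 genes at an unadjusted p under 0.05 it left 9, all 9 of them still past it. The 14 became 8 without the mice of doubtful sex label, 5 with the keratinocyte covariate and 9 to 18 with 1 mouse left out, 9 without mouse 7. The Ifit3 difference kept its direction, with adjusted p of 0.0699 without the filter, 0.0522 centred, 0.281 without doubtful mice, 0.0777 with first papillomas, 0.0531 with sex and start cohort, 0.642 with the keratinocyte covariate (difference 0.84 against 0.90) and 0.0352 to 0.154 with 1 mouse left out (highest without mouse 35). For sex, 17 genes at an unadjusted p under 0.05 became 4 without the mice of doubtful label, 10 with first papillomas, 9 without the 2 mice of highest muscle mean, 3 with the macrophage covariate and 10 to 25 with 1 mouse left out (10 without mouse 12, 11 without mouse 21). With 1 mouse left out, 0 to 0 genes passed in susceptible minus resistant mice, by coat and by sex, and 18 to 28 for the intraclass correlation. Relations that passed within start cohorts were 0, 11 and 6 for Irf7, 0, 6 and 0 for T cell markers (14 without doubtful mice) and 0, 4 and 0 for macrophage markers, where fewer mice enter. Over all probesets, the 168 calls of resistant minus intermediate mice were 105 without the filter, 9 without doubtful mice, 738 with first papillomas, 960 with the Actb ratio and 0 with the keratinocyte covariate; the 11 of susceptible minus resistant mice were 366 with papillomas as samples; and the 1 of papilloma number was 110 without doubtful mice. Apart from the stricter filter, the cause of these changes was not tested. Of 22 cages, 6 held mice of over 1 class, 2 held both resistant and intermediate mice and 0 held both sexes. With cage as a random block the counts of listed genes that passed in the class and sex comparisons were the same. Because no cage held both sexes, this fit cannot separate cage from sex. It can separate cage from class in few cages only. The cage, leave-one-out, sex and class covariate, muscle, keratinocyte and macrophage fits of these comparisons were chosen after seeing the data. No direction of a passing result reversed. No paired analysis was possible because the replicate numbers mark papillomas within a mouse and pair no mice between groups. Shared cages and start cohorts were fitted as above. The labels also gave an origin for each mouse, which entered no fit, and its part was not tested. The 6 resistant mice, 2 papillomas at most per mouse and doubtful labels limit these comparisons, and SPRET/Ei alleles under probes were not analysed here.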
